A study of Rattus norvegicus with 12 samples.

Results

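Insulin is released when secretory granules fuse with the plasma membrane, and 9 genes of that fusion machinery were described across 4 groups of INS-1E cells: Snap25, Vamp2, Stx1a, Syt7, Syt4, Syt13, Rab3a, Rims2 and Unc13a. They were taken from the gene count table by symbol, and all 9 were present among its 34034 rows and among the 14324 genes that passed a filter on low counts. INS-1E is a clonal rat insulinoma line used as a β-cell model, and no animal or donor varied between the groups. Untreated cells received no cytokine. IL-1βlow cells received IL-1β at 10 pg/ml for 72 h, with fresh IL-1β added daily and no change of medium in that time. CYT cells received a challenge of IL-1β at 100 pg/ml with IFN-γ at 5 ng/ml for 16 h. IL-1βlow + CYT cells received the low dose of IL-1β first and the challenge afterwards. Each group had 3 libraries, which the labels call biological replicates without naming passages or separate days, so p-values measure the spread between these libraries.

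SNARE proteins on the granule and on the plasma membrane zip into a complex that pulls both membranes together. Vamp2 is the granule SNARE, and Snap25 and Stx1a are its partners on the plasma membrane. Synaptotagmins carry C2 domains, through which several of them sense the Ca2+ that triggers fusion in β-cells. Rab3a is a small GTPase on granules, Rims2 encodes the scaffold RIM2 that binds Rab3, and Unc13a encodes Munc13-1, which primes docked granules by opening syntaxin.

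RefSeq promoter windows on the assembly GRCr8, from 250 bases before to 50 bases after each gene's start, were at hand for 5 of the 9 genes: Vamp2, Stx1a, Unc13a, Rab3a and Syt4. Snap25, Syt7, Syt13 and Rims2 were not matched. The part of the window upstream of the annotated gene is shown, 5′ to 3′ on the strand of the gene, for 4 of them. For Vamp2 that part fell below a minimum length and is not shown. Capitals mark the GC box (GGGCGG) and the core of the cAMP response element (TGACG), each on either strand.
Rab3a, chr16:18722274-18722523, minus strand: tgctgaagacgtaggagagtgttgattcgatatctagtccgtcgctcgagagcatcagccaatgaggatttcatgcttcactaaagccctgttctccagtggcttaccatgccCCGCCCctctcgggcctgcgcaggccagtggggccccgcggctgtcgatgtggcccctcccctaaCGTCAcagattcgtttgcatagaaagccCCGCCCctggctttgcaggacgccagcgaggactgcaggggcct
Syt4, chr18:23320864-23321113, minus strand: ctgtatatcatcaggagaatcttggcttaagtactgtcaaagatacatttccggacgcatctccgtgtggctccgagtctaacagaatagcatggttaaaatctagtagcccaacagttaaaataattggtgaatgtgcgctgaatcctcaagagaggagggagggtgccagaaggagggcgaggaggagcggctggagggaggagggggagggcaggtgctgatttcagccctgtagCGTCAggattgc
Unc13a, chr16:18415809-18416036, minus strand: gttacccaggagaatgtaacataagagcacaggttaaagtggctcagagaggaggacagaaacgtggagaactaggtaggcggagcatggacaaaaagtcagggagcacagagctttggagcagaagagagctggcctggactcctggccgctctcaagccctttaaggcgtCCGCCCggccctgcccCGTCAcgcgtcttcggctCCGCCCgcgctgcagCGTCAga
Stx1a, chr12:27306548-27306721, minus strand: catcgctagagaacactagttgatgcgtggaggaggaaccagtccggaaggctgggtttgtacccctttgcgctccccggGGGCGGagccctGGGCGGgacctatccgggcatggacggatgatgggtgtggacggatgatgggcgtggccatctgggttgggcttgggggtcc
A GC box was found in 4 of the 5 windows, and 34.9% of all 27457 promoter windows held it. The TGACG core was found in 4 of the 5 windows as well, against 22% of all windows. Syt4 had no GC box and the lowest GC content of the printed stretches, 51.2%, against 64.4% for Stx1a. None of the 5 windows held the full cAMP response element (TGACGTCA, in 1.91% of all windows, and containing the core), a TATA box (TATAAA, 14.3%), an interferon gamma activated site (TTCNNNGAA, 8.68%) or an NF-κB site (7.6%). These matches describe letters in a window and say nothing of binding.

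Total counts ran from 15812640 to 20246806 per library, and each of the 9 genes had between 659 and 29693 counts in a library. Libraries of 1 group differed from each other by 7.08 to 27.4 times the variance that counting alone would give, so no pair was a repeat of the same library. Values are counts scaled to library size (CPM) with TMM factors, and they compare groups within a gene, not genes with each other. β-cell markers were present in every group (9 of 10 above 1 CPM). Their summed level was 42210 to 49000 CPM in untreated, 37680 to 44140 in IL-1βlow, 13780 to 14720 in CYT and 19700 to 25120 in IL-1βlow + CYT libraries. Ins1, Chga and Ins2 made up most of each sum, and single markers differed. In the same order, Slc2a2 had means of 434, 352, 397 and 596 CPM and Neurod1 of 167, 167, 110 and 181 CPM. Pdx1 (266, 297, 103 and 263 CPM) and Iapp (2832, 2318, 1443 and 2595 CPM) were near untreated in IL-1βlow + CYT cells. Ins1, Ins2, Chga and Nkx6-1 stayed below every untreated library there. The sum of the other islet hormones (2 of 5 above 1 CPM), nearly all Gcg, moved as the β-cell sum did. It was 187 to 368, 157 to 260, 25.4 to 64.9 and 74.5 to 152 CPM in the same order. Ghrl, with means of 1.425, 1.688, 1.754 and 1.155 CPM, did not move that way. The endothelial and fibroblast sum (1 of 5 above 1 CPM, Pdgfra) was also lowest in CYT, at 12.1 to 16.3, 12.9 to 14.9, 6.06 to 7.11 and 8.26 to 10.9 CPM. In the acinar and ductal list only Muc1 of 5 genes passed 1 CPM, with sums of up to 0.365, 1.03, 9.27 and 1.96 CPM, while Prss1, Cpa1 and Amy2a3 were at 0. Leukocyte sums (2 of 6 genes above 1 CPM) were 1.125 to 1.776, 0.923 to 1.296, 1.022 to 1.521 and 2.238 to 2.32 CPM in the same order. Csf1r had means of 0.6298, 0.3071, 0.1659 and 1.433 CPM, and Ptprc and Itgam were at 0 in all 12 libraries. The part of these marker levels in the results was not tested.

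Differences were tested with edgeR's quasi-likelihood test over all tested genes, with Benjamini-Hochberg adjustment, and every adjusted p given for a gene comes from that test. A gene is said to have risen or fallen where its adjusted p was under 0.05, and to have passed the study's thresholds where adjusted p was under 0.01 and the log2 fold change exceeded 1, or 0.6 for IL-1βlow against untreated. With 3 libraries a group, an exact permutation test of a gene on its own could not go below p = 0.1.

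With the CYT challenge, Snap25 and Syt13 fell with an estimate past the fold change minimum, and Vamp2, Unc13a and Syt7 fell by less. No change was called for Rims2 and Syt4, whose CYT and untreated libraries overlapped. Rab3a and Stx1a rose. Preconditioned cells that met the same challenge had less Rab3a and Syt4 than CYT cells and more Syt13, Vamp2 and Unc13a. In bulk RNA, a lower level in every cell and fewer cells at the old level cannot be told apart.

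**Figure D1:**
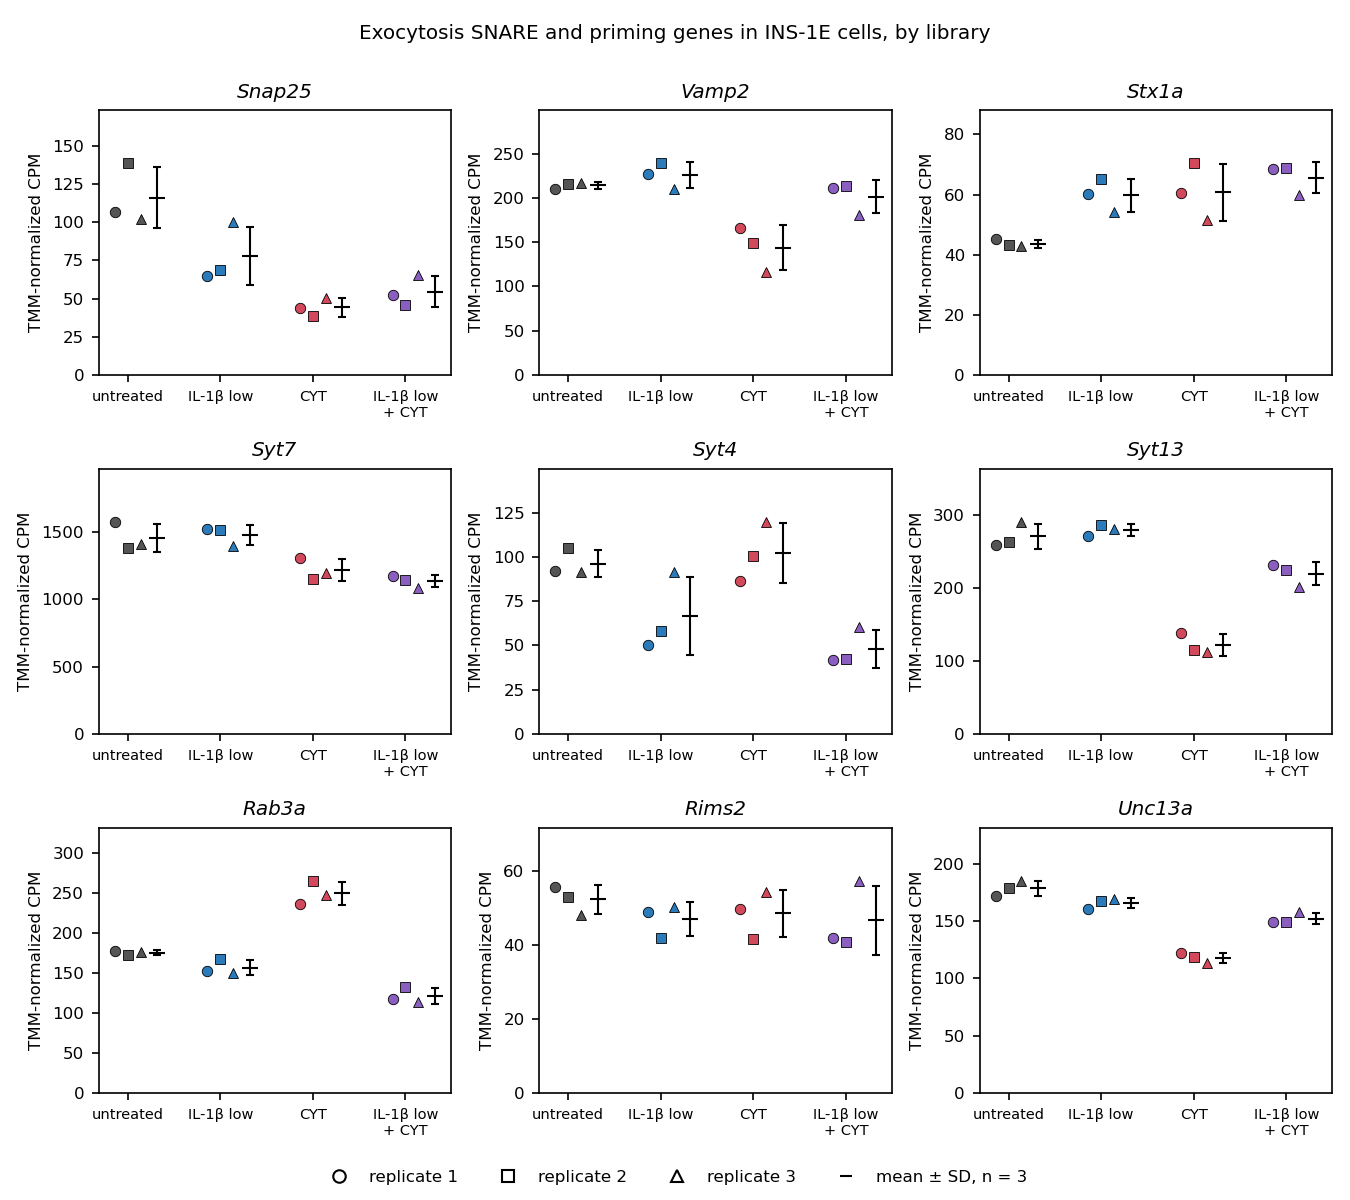
TMM-normalized CPM of the 9 genes (vertical axes, from 0, with a scale for each gene) in the 12 libraries by group (horizontal axes); symbols give the replicate number and bars the mean ± SD of 3 libraries. Rab3a was at 237 to 265 CPM in CYT and 114 to 133 CPM in IL-1βlow + CYT libraries, on either side of the untreated level, and Syt13 was at 112 to 139 CPM in CYT libraries, under all others.

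Among the SNAREs, Snap25 fell the most. It was at 107, 139 and 102 CPM in the untreated libraries (116 ± 19.97, SD, n = 3) and at 64.9, 68.8 and 100.1 CPM with IL-1βlow (77.9 ± 19.3). In CYT cells it was at 43.7, 38.4 and 50.5 CPM (44.2 ± 6.06), and in IL-1βlow + CYT cells at 52.6, 45.8 and 65.4 CPM (54.6 ± 9.97). Every treated library was below every untreated one, IL-1βlow replicate 3 only just, while IL-1βlow and IL-1βlow + CYT libraries overlapped, as did IL-1βlow + CYT and CYT libraries. Against untreated cells Snap25 fell by 1.39 on the log2 scale with CYT (SE 0.179, adjusted p = 1.19e-05) and by 1.09 with IL-1βlow + CYT (SE 0.178, adjusted p = 0.000387). The latter value was -0.95 without untreated replicate 2 and -0.97 without IL-1βlow + CYT replicate 2, both under the fold change minimum. IL-1βlow alone gave a log2 fold change of -0.57 (SE 0.175, adjusted p = 0.151). Preconditioned and plain CYT cells differed by 0.30 (SE 0.179, adjusted p = 0.174). In GRCr8 the gene shares its span with 2 long non-coding RNAs, and whether counting used strand is not given in the sources used here, which leaves the level uncertain to that extent.

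Vamp2 fell with the challenge in plain cells, and preconditioned challenged cells overlapped the untreated ones. Its level was 210, 216 and 217 CPM in untreated (214 ± 3.74) and 227, 239 and 210 CPM in IL-1βlow cells (226 ± 14.5). CYT cells had 166, 150 and 116 CPM (144 ± 25.6), and IL-1βlow + CYT cells had 211, 213 and 180 CPM (201 ± 18.4). All 3 CYT libraries were below the other 9. The log2 fold change was -0.57 for CYT against untreated (SE 0.114, adjusted p = 0.000559) and 0.49 for IL-1βlow + CYT against CYT (SE 0.114, adjusted p = 0.0027), both below the fold change minimum of 1. For IL-1βlow + CYT against untreated it was -0.09 (adjusted p = 0.625).

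Stx1a went the other way from its membrane partner Snap25. Untreated cells were at 45.2, 43.2 and 42.7 CPM (43.7 ± 1.32), and IL-1βlow cells at 60.1, 65.0 and 54.1 CPM (59.7 ± 5.47). CYT cells were at 60.4, 70.5 and 51.4 CPM (60.7 ± 9.55), and IL-1βlow + CYT cells at 68.3, 68.7 and 59.7 CPM (65.6 ± 5.09). All 9 treated libraries were above the 3 untreated ones, and the treated groups overlapped each other. The gene rose by a log2 value of 0.47 with CYT (SE 0.113, adjusted p = 0.00219) and of 0.59 with IL-1βlow + CYT (SE 0.113, adjusted p = 0.0015), and IL-1βlow alone gave 0.45 (SE 0.113, adjusted p = 0.0745, against 0.0168 by DESeq2 and 0.0164 by edgeR's exact test). None of these passed the fold change minimum.

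The synaptotagmins each had a pattern of their own. Syt7, a high-affinity Ca2+ sensor for granule fusion, was at 1575, 1380 and 1409 CPM in untreated (1455 ± 105) and at 1522, 1519 and 1395 CPM in IL-1βlow cells (1479 ± 72.2). CYT cells had 1309, 1150 and 1196 CPM (1218 ± 81.9), and IL-1βlow + CYT cells had 1174, 1147 and 1084 CPM (1135 ± 46.1). The 6 challenged libraries lay below the 6 unchallenged ones, and the groups within each set overlapped. Syt7 fell by 0.26 on the log2 scale with CYT (SE 0.0851, adjusted p = 0.0173), a call lost without untreated replicate 1 (adjusted p = 0.0955), CYT replicate 2 (0.074) or CYT replicate 3 (0.078). It fell by 0.36 from untreated (SE 0.0852, adjusted p = 0.00684) and by 0.38 from IL-1βlow (adjusted p = 0.00682) in preconditioned challenged cells.

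Syt4, a synaptotagmin that lacks a conserved Ca2+-binding residue, was lowest in IL-1βlow + CYT cells. Untreated cells had 92.2, 104.9 and 91.7 CPM (96.3 ± 7.52), and CYT cells had 86.2, 100.4 and 119.7 CPM (102.1 ± 16.8), so both groups overlapped. IL-1βlow cells had 50.3, 58.3 and 91.7 CPM (66.8 ± 21.9), with replicate 3 at the untreated level, and IL-1βlow + CYT cells had 41.5, 42.4 and 60.4 CPM (48.1 ± 10.7), below every untreated and CYT library. Against CYT cells, preconditioned challenged cells had a log2 fold change of -1.09 (SE 0.2, adjusted p = 0.000456). It was -0.99 without CYT replicate 3, under the minimum. Against untreated cells it was -1.002 (SE 0.2, adjusted p = 0.00202), a value at the minimum that missed it with RLE scaling (-0.99), DESeq2 (-0.99), no filter (-0.97) or a fit of those groups alone (-0.9952), and without untreated replicate 2 (-0.95), IL-1βlow + CYT replicate 1 (-0.92) or IL-1βlow + CYT replicate 2 (-0.92). IL-1βlow against untreated gave -0.53 (SE 0.198, adjusted p = 0.262).

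Syt13, an atypical synaptotagmin that does not bind Ca2+, fell with CYT and was partly back in preconditioned cells. Levels were 258, 263 and 290.2 CPM in untreated (271 ± 17.2) and 270.4, 286 and 281 CPM in IL-1βlow cells (279 ± 7.81). They were 139, 115 and 112 CPM in CYT (122 ± 14.7) and 232, 225 and 201 CPM in IL-1βlow + CYT cells (220 ± 16.0). Untreated and IL-1βlow libraries overlapped, all IL-1βlow + CYT libraries lay below them, and all CYT libraries lay lower still. The log2 fold change was -1.15 for CYT against untreated (SE 0.0936, adjusted p = 1.1e-07), and all 6 fits that left out a library passed. For IL-1βlow + CYT it was 0.85 against CYT (SE 0.0932, adjusted p = 5.04e-06) and -0.30 against untreated (SE 0.0921, adjusted p = 0.0292). The latter call was lost without untreated replicate 3 (adjusted p = 0.125) or IL-1βlow + CYT replicate 2 (0.0608) or 3 (0.0654).

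The 4 groups of Rab3a separated fully, with CYT at the top and IL-1βlow + CYT at the bottom. It was at 178, 172 and 176 CPM in untreated (176 ± 2.95) and at 153, 168 and 150 CPM in IL-1βlow cells (157 ± 9.57). CYT cells had 237, 265 and 248 CPM (250.2 ± 14.4), and IL-1βlow + CYT cells had 118, 133 and 114 CPM (122 ± 10.4). The same challenge thus went with a higher level in plain cells and a lower one in preconditioned cells. Rab3a rose with CYT by a log2 value of 0.51 (SE 0.0813, adjusted p = 8.49e-05) and fell by 0.37 when IL-1βlow cells were challenged (SE 0.0818, adjusted p = 0.00683). The latter call was lost without replicate 1 of all groups (adjusted p = 0.0997). No change was called from untreated to IL-1βlow (-0.16, adjusted p = 0.381). Between the challenged groups the log2 fold change was -1.04 (SE 0.0821, adjusted p = 2.92e-07), and between -1.11 and -0.99 when a library was left out. It dropped under the minimum of 1 without CYT replicate 2 (-0.9969) and without IL-1βlow + CYT replicate 3 (-0.99). In GRCr8 Rab3a overlaps Mpv17l2, a protein-coding gene at 25.2 CPM in untreated, 22.9 in IL-1βlow, 34.7 in CYT and 25.4 in IL-1βlow + CYT cells. Mpv17l2 rose with CYT by 0.46 (adjusted p = 0.000871) and fell by 0.45 between the challenged groups (adjusted p = 0.00153), and how reads of the overlap were assigned was not tested.

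Unc13a also separated the 4 groups, in another order. Untreated cells had 172, 179 and 185 CPM (179 ± 6.39) and IL-1βlow cells 161, 168 and 169 CPM (166 ± 4.62). CYT cells had 122, 118 and 114 CPM (118 ± 4.34) and IL-1βlow + CYT cells 149, 149 and 158 CPM (152 ± 5.09). Every library fell in its group's own range, with CYT lowest, then IL-1βlow + CYT, IL-1βlow and untreated. Unc13a fell by 0.60 on the log2 scale with CYT (SE 0.069, adjusted p = 3.97e-06), and preconditioned challenged cells were higher than CYT cells by 0.37 (SE 0.069, adjusted p = 0.000545) and lower than untreated ones by a log2 value of -0.23 (SE 0.0687, adjusted p = 0.025). The latter call was lost without untreated replicate 2 (adjusted p = 0.0539) or 3 (0.1), or IL-1βlow + CYT replicate 1 (0.0704) or 2 (0.093). The step from untreated to IL-1βlow was -0.11 (adjusted p = 0.481).

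Rims2 varied least. It was at 55.7, 52.9 and 48.0 CPM in untreated (52.2 ± 3.88), 48.9, 41.7 and 50.1 in IL-1βlow (46.9 ± 4.53), 49.7, 41.6 and 54.1 in CYT (48.5 ± 6.35) and 41.8, 40.7 and 57.2 CPM in IL-1βlow + CYT cells (46.5 ± 9.23). All 4 groups overlapped, and group means spanned 0.18 on the log2 scale, against 1.38 for Snap25 and 1.20 for Syt13. No comparison of Rims2 reached an adjusted p of 0.05, with log2 fold changes of -0.17 to -0.01 in the pairwise comparisons. Without replicate 3 of all groups, IL-1βlow + CYT against untreated gave -0.40 (adjusted p = 0.0139) and CYT against untreated -0.27 (adjusted p = 0.0488), and without IL-1βlow + CYT replicate 3 alone the former was -0.34 (adjusted p = 0.0421). Rims2 shares its span with 5 other annotated loci in GRCr8, 4 of them long non-coding RNAs.

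Over the 9 genes, IL-1βlow alone moved none past the thresholds (0 of 9), where 0.433% of all tested genes passed. At adjusted p under 0.05 alone the count in the main fit was also 0, against 1.35% of all genes. The unadjusted p was under 0.05 for 3 genes (Snap25, Stx1a and Syt4), and DESeq2 and edgeR's exact test passed 0 at the study's thresholds as well. A replicate block also passed 0, but put these 3 genes at adjusted p under 0.05. They had -0.60 (Snap25, adjusted p = 0.0282), 0.45 (Stx1a, 0.00587) and -0.58 (Syt4, 0.0184). Calls over all genes at the study's thresholds went from 62 to 141 with the block. Replicate 3 stood apart in the values of Snap25 and Syt4, so the fit was repeated without replicate 3 of all groups, a choice made after seeing the data. Snap25 then had a log2 fold change of -0.88 (adjusted p = 0.00135) and Syt4 of -0.86 (adjusted p = 0.000867), and both passed, while Stx1a had 0.50 (adjusted p = 0.00623), under the minimum. Over all tested genes, calls in this comparison went from 62 to 496. Leaving out IL-1βlow replicate 3 alone gave -0.79 (adjusted p = 0.0246) and -0.83 (adjusted p = 0.0227). Without replicate 1 of all groups, or without replicate 2, 0 of the 9 genes passed. At the study's thresholds the calls for these 2 genes thus turned on replicate 3, and what set it apart was not tested. At adjusted p under 0.05 both genes were also called with the replicate block and every library kept.

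With CYT, 2 of 9 genes passed, both lower, beside 21.6% of all genes. At adjusted p under 0.05, 5 fell (Snap25, Vamp2, Syt7, Syt13 and Unc13a) and 2 rose (Stx1a and Rab3a), beside 62.3% of all genes in either direction. The median of the 9 log2 fold changes was -0.26, and that of all tested genes was -0.04. Between IL-1βlow + CYT and CYT cells, 2 of 9 passed, Syt4 and Rab3a, both lower in preconditioned cells, where 12.5% of all genes passed. Of the 5 genes at adjusted p under 0.05 (50.7% of all genes), Vamp2, Syt13 and Unc13a were higher. Both comparisons share the CYT libraries. Tested against the fold change minimum itself with edgeR's glmTreat, none of these 4 calls held, with an adjusted p of 0.0462 for Snap25, 0.121 for Syt13 and 1 for Syt4 and Rab3a.

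Against untreated cells, IL-1βlow + CYT passed 2 of 9, Snap25 and Syt4 (5.99% of all genes), and 7 reached an adjusted p under 0.05 (21.8% of all genes): Stx1a higher, and Snap25, Syt7, Syt4, Syt13, Rab3a and Unc13a lower. When IL-1βlow cells met the challenge, 0 of 9 passed (3.88% of all genes), by edgeR, its exact test and DESeq2 alike. An unadjusted p under 0.05 was seen for 5 genes. Syt7, Syt13 and Rab3a fell at adjusted p under 0.05, beside 13.0% of all genes, by 0.38, 0.35 and 0.37 on the log2 scale. The Syt13 call was lost without IL-1βlow replicate 2 (adjusted p = 0.0503) or 3 (0.0533), or IL-1βlow + CYT replicate 3 (0.0612). With a replicate block, Snap25 (-0.51, adjusted p = 0.0254) and Syt4 (-0.46, adjusted p = 0.0228) also fell.

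**Figure D2:**
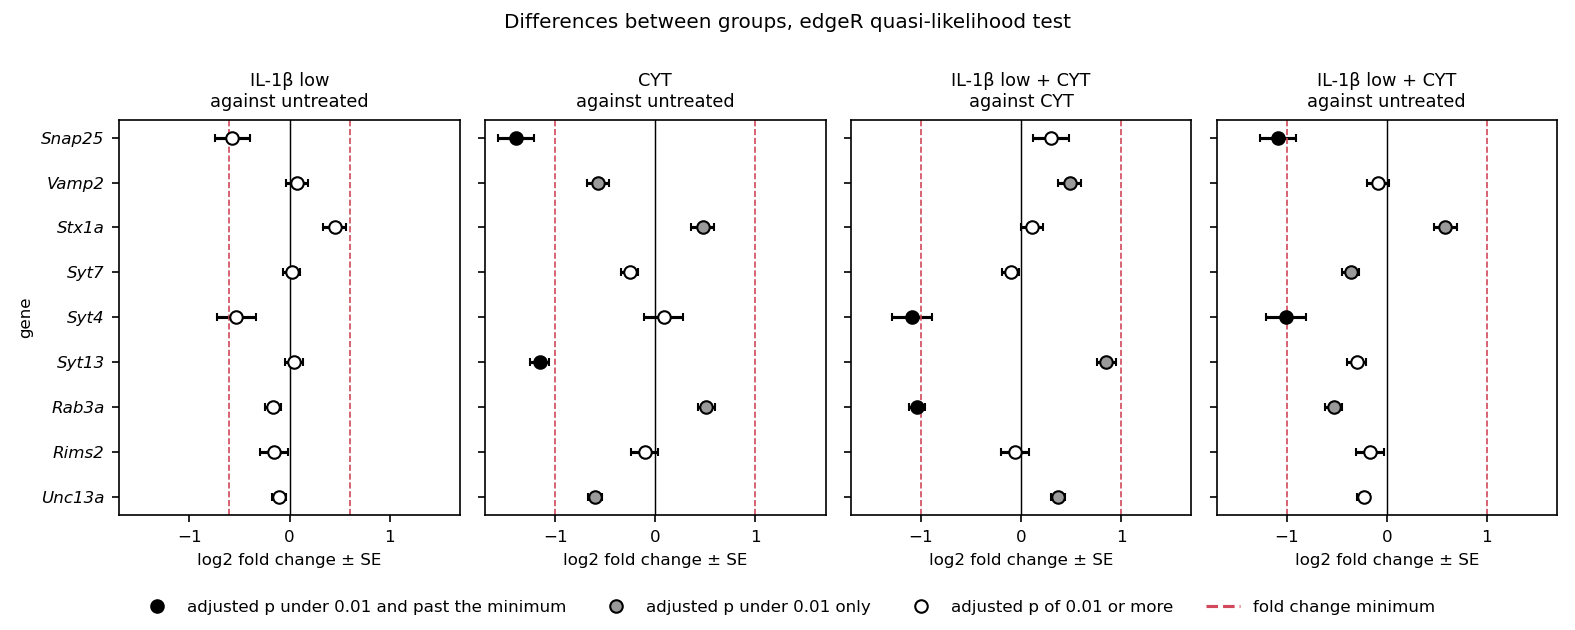
Log2 fold change ± SE (horizontal axes) of the 9 genes in 4 comparisons from edgeR's quasi-likelihood fit of 12 libraries; dashed lines are the fold change minimum, and filled symbols mark genes past both thresholds. Snap25 (-1.39) and Syt13 (-1.15) passed with CYT, Syt4 (-1.09) and Rab3a (-1.04) between the challenged groups, and Snap25 (-1.09) and Syt4 (-1.002) between IL-1βlow + CYT and untreated cells.

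The interaction term asked whether the effect of CYT differed with and without preconditioning. It reached an adjusted p under 0.05 for 4 of 9 genes, beside 37.3% of all genes, and 0 of 9 passed with the added minimum of 1, beside 10.7%. The unadjusted p was under 0.05 for 5 genes, and DESeq2 also passed 0. Rab3a had an interaction of -0.88 (SE 0.115, adjusted p = 7.21e-05), which is the reversal of its response. Syt13 (0.81, SE 0.131, adjusted p = 0.000348), Unc13a (0.47, SE 0.0973, adjusted p = 0.00187) and Snap25 (0.88, SE 0.25, adjusted p = 0.0139) were positive, so their fall with CYT was smaller after preconditioning. For Snap25 the IL-1βlow level itself lay lower, and its interaction was 1.15 (adjusted p = 0.000534) without replicate 3 of all groups. It missed 0.05 without untreated replicate 2 (0.69, adjusted p = 0.0549) or IL-1βlow replicate 1 (0.73, adjusted p = 0.0505), and without replicate 1 (adjusted p = 0.133) or 2 (0.14) of all groups. Vamp2 (0.41, adjusted p = 0.0585), Stx1a (-0.34, adjusted p = 0.108), Syt4 (-0.56, adjusted p = 0.132), Syt7 (-0.13, adjusted p = 0.436) and Rims2 (0.09, adjusted p = 0.731) were not shown to respond to CYT differently in preconditioned cells. Without replicate 3 of all groups, Vamp2 (0.31, adjusted p = 0.0428) and Stx1a (-0.42, adjusted p = 0.0283) joined the genes under 0.05. With a replicate block, Vamp2 (adjusted p = 0.0112), Stx1a (0.0304) and Syt4 (0.0304) did so. Some fits without a library gave the same: Vamp2 without CYT replicate 1 (0.0199), Stx1a without CYT replicate 3 (0.0218) and Syt4 without IL-1βlow + CYT replicate 3 (0.0356).

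Across the 12 libraries, log2 levels of Syt13 ran closest to Unc13a (Pearson's r = 0.96) and Vamp2 (r = 0.94), Snap25 ran opposite to Stx1a (r = -0.82), and Syt4 ran with Rab3a (r = 0.75). These values describe 12 points that fall into 4 treatment groups and share their libraries. The genes most like Syt13 over all tested genes were Eeig1 (r = 0.998), Nkx2-2 (r = 0.992), a transcription factor of β-cells, and Abcc3 (r = 0.991). For Snap25 they were Tpd52 (r = 0.984), Rad18 (r = 0.972) and Ssr1 (r = 0.969), and for Syt4 they were Cpeb2 (r = 0.96), Golga5 (r = 0.956) and Socs5 (r = 0.955).

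The rest of the exocytosis machinery was read from 5 lists of 97 other genes, of which 89 were tested. With CYT, 9 rose and 14 fell past the thresholds, with a median log2 fold change of -0.09 over the tested list genes. That is 23 of 89, beside 21.6% of all tested genes, of which 1439 rose and 1657 fell. The split differed between lists: SNAREs had 3 higher and 2 lower of 20, Ca2+ sensors and C2 proteins 3 and 4 of 18, priming factors and SNARE regulators 1 and 2 of 17, Rab GTPases with effectors and scaffolds 1 and 6 of 25, and the exocyst 1 and 0 of 9. No test between the lists was run.

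Rab GTPases and scaffold proteins gather granules at release sites. Rab27a, a granule GTPase, went from 34.5 ± 1.96 to 8.54 ± 1.37 CPM, a log2 fold change of -2.01 (SE 0.129), and Rab27b had -2.08 (SE 0.29). Rims3 (-1.61), the ELKS gene Erc1 (-1.41), the Piccolo gene Pclo (-1.34) and the RIM-binding protein gene Rimbp2 (-1.20) fell as well, while Rab3il1, an exchange factor for Rab proteins, rose (1.68). After preconditioning, Erc1 was at 149 ± 14.3 CPM against 77.6 ± 7.38 in CYT and 206 ± 20.6 in untreated cells. Pclo was at 186 ± 14.7, 97.1 ± 17.0 and 245 ± 26.6 CPM in the same order. Rab27a stayed near its CYT level, at 11.1 ± 0.897, 8.54 ± 1.37 and 34.5 ± 1.96 CPM in that order. Ppfia4, a liprin, passed between the challenged groups (-1.53), at 4.25 ± 0.885 CPM after preconditioning and 12.3 ± 0.559 CPM in CYT cells.

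Of the C2 proteins, the granuphilin gene Sytl4, which docks insulin granules, was at 636, 591 and 667 CPM in untreated and 232, 119 and 186 CPM in CYT cells. It fell by 1.82 on the log2 scale (SE 0.198, adjusted p = 2.21e-06), and IL-1βlow + CYT cells were at 441, 309 and 412 CPM, higher than CYT cells by 1.11 (SE 0.194, adjusted p = 0.000302), a value of 0.89 without CYT replicate 2 and 0.98 without IL-1βlow + CYT replicate 1. The Ca2+ sensor Syt9 rose with CYT from 35.1 ± 1.54 to 122 ± 18.2 CPM (1.79, SE 0.105) and was at 69.6 ± 3.94 CPM in IL-1βlow + CYT cells. Syt1 (2.39) and Sytl2 (4.16) rose from low levels of 2.93 ± 0.401 and 0.554 ± 0.165 CPM, and both were lower in IL-1βlow + CYT than in CYT cells (-1.09, and -0.97 without IL-1βlow + CYT replicate 1 or 2, for Syt1, and -1.24 for Sytl2). Syt10 (-1.35), Syt16 (-1.97) and Doc2g (-1.28) fell with CYT, at untreated levels of 3.20, 1.52 and 1.56 CPM. Syt10 was lower again in IL-1βlow + CYT cells (-1.799 against CYT). The calls of Syt10, Syt16, Doc2g and, between the challenged groups, Sytl2 were each lost in 2 or more fits that left out a library. Doc2g also missed the thresholds by DESeq2 (adjusted p = 0.0116). Sytl2 was spread widely over the IL-1βlow + CYT libraries, at 1.885, 3.879 and 6.894 CPM.

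In the SNARE list, Stx6 (1.54, SE 0.113) and Stx7 (1.21, SE 0.116) rose with CYT, and both are known for fusion at endosomes and the trans-Golgi network, not for granule release. Vamp5 rose too (1.28, SE 0.263), at 4.84 CPM. Vamp1, a close relative of Vamp2, fell (-1.71, SE 0.227). Untreated cells held 6.29 ± 0.828 CPM of Vamp1, CYT cells 1.92 ± 0.666 and preconditioned challenged cells 6.53 ± 0.155. Between the challenged groups Vamp1 was higher after preconditioning (1.77).

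Among priming genes, Cadps, which encodes the granule priming factor CAPS1, fell with CYT (-1.08, SE 0.127, or -0.98 without CYT replicate 2 or 3) and was higher in IL-1βlow + CYT than in CYT cells (1.27, SE 0.127), at 68.0 ± 3.28, 32.2 ± 6.87 and 77.8 ± 4.16 CPM in untreated, CYT and IL-1βlow + CYT cells. Stxbp4, a syntaxin-binding regulator, had -1.19 (SE 0.192) and 1.14 (SE 0.192, or 0.97 without IL-1βlow + CYT replicate 3) in the same comparisons. Unc13c, a Munc13 form, passed with CYT at 2.17, 1.87 and 1.64 CPM, where untreated libraries held 0, 0.296 and 0.122 CPM, too few counts for a fold change. The exocyst subunit Exoc6 rose with CYT from 31.5 ± 2.56 to 80.0 ± 8.70 CPM (1.35, SE 0.186), and IL-1βlow + CYT libraries had 57.0, 65.0 and 104.2 CPM, of which replicate 3 was the highest.

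**Figure D3:**
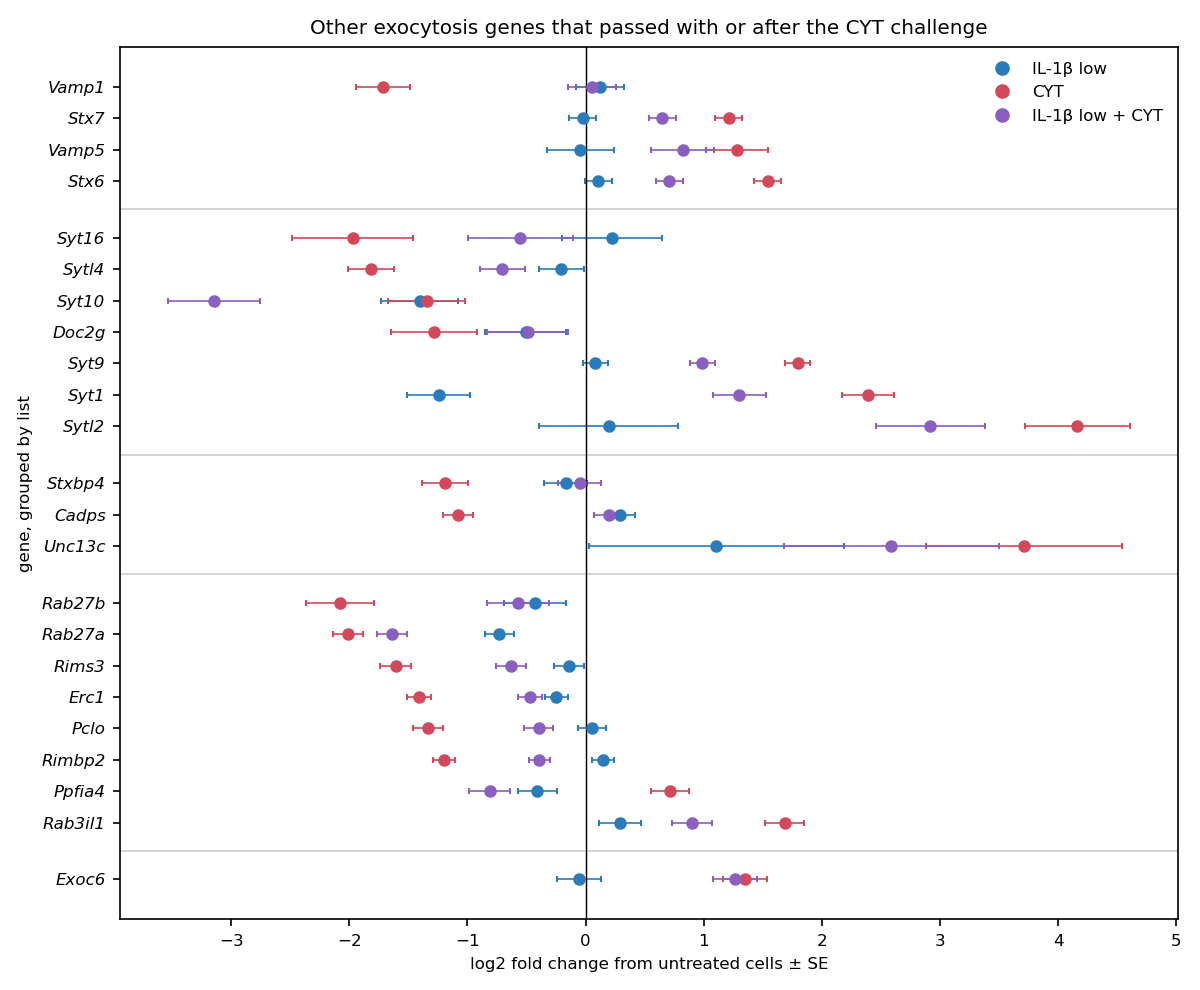
Log2 fold change from untreated cells ± SE (horizontal axis) of 23 other exocytosis genes that passed with CYT or between the challenged groups, grouped by list from SNAREs at the top to the exocyst, with a point for each treated group. The genes were chosen by the CYT libraries, so neither the spread of the CYT points nor their distance from other points is a result. IL-1βlow + CYT points lie nearer to 0 for Sytl4 (-1.82 with CYT) and Cadps (-1.08) and farther out for Syt10. For Exoc6 the IL-1βlow + CYT point lies close to the CYT point (75.4 and 80.0 CPM). The Unc13c points are fitted values against libraries with few or no counts.

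Between the challenged groups, 10 of the 89 list genes passed, 6 higher and 4 lower after preconditioning, beside 12.5% of all genes (937 higher, 848 lower). The interaction passed for 10, 8 positive and 2 negative, beside 10.7% of all genes (785 positive, 745 negative). IL-1βlow alone, with which 0.433% of all genes passed, moved Rab3b (0.74, SE 0.127, adjusted p = 0.00854) and Rab27a (-0.73, SE 0.122, adjusted p = 0.00735), small GTPases of granules, past the thresholds. Rab3b was at 26.4 ± 1.76 CPM in untreated and 44.0 ± 6.92 in IL-1βlow cells, and Rab27a was at 34.5 ± 1.96 and 20.8 ± 1.40 CPM. Both calls were lost when almost any library was left out: Rab3b held only without IL-1βlow replicate 3, and its adjusted p otherwise rose to 0.0206 to 0.06, while that of Rab27a rose to 0.0215 to 0.0644 in all 6 fits, with log2 fold changes of 0.60 to 0.80 and -0.79 to -0.69. IL-1βlow + CYT against untreated passed 5 list genes (3 higher, 2 lower), beside 5.99% of all genes, and against IL-1βlow it passed 3, all higher, beside 3.88%.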

How the data were processed

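RNA from INS-1E cells was sequenced in 12 libraries, 3 in each of 4 groups. Reads were checked by the authors with FastQC and trimmed with rfastp, mapped with Rsubread on mRatBN7.2 and summed over genes by featureCounts in R 4.3.3, and the deposited values are whole, unnormalized counts per gene symbol. The strand setting is not given in the sources used here. Samples were grouped by their labels, and 0 columns of per-sample values were left unused.

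In R 4.3.3, genes above 1 CPM in at least 2 libraries were kept (99.9% of counts). TMM scaling and edgeR 4.0.16 quasi-likelihood tests (limma 3.58.1) with 8 residual degrees of freedom were run over 6 comparisons, including the interaction, and p-values were adjusted by Benjamini-Hochberg over 14324 genes. SEs were derived from the F statistic. The steps were tested on simulated counts. Libraries with the same replicate number deviated together between the 3 treated groups (9 of 9 correlations of deviations over 0.1, 0.141 to 0.586). They did not do so with the untreated group (4 of 9, -0.209 to 0.187). The mean was 0.215, against -0.105 for other numbers. Deviations cancel out within a group, so the latter mean largely follows from the former. From the correlations between treated groups, and not from the labels, the numbers were taken to pair these groups. The main fit used group means only and did not use this pairing, and a replicate block was run as an alternative. Correlations used log2 of CPM plus 0.5. DESeq2 1.42.0, edgeR's exact test, other scalings and filters, and fits without a library were alternatives. Other exocytosis genes were named where they passed with CYT or between the challenged groups, except for 1 that is counted in its list and not reported here. The 9 genes and all lists were chosen with earlier results of these data known. Intervals from depth would cover counting error only. Motifs were searched in RefSeq promoter windows of GRCr8, a build other than that of the counts, so no coordinate was joined to the count table.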

Additional observations from a re-analysis of the deposited data

Results flagged for a closer look

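The effect of CYT differed between plain and preconditioned cells, by the interaction term of edgeR's quasi-likelihood fit at adjusted p under 0.05, for 4 of the 9 genes and 32 of the 89 tested list genes (19 positive, 13 negative), where 37.3% of all tested genes did. The list genes given here were named for their values in the CYT libraries, which enter the interaction too, so their number and signs are no result. On the log2 scale the interaction was positive for Snap25 (0.88), Syt13 (0.81) and Unc13a (0.47) and negative for Rab3a (-0.88). Among SNAREs it was 1.64 for Vamp1, -0.94 for Stx6 and -0.54 for Stx7. Syt9 had -0.88 and Sytl4 had 1.32, and the priming genes Cadps and Stxbp4 had 0.98 and 1.31. Rab27a had 1.11, Rab27b 1.94, Rims3 1.11, Rimbp2 0.66, Erc1 1.18 and Pclo 0.88, all positive, while Rab3il1 had -1.07 and Ppfia4 had -1.11. For Rab27a the IL-1βlow level itself lay lower (20.8 CPM, against 34.5 in untreated cells). Its level was 11.1 CPM in IL-1βlow + CYT and 8.54 CPM in CYT cells.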

How the results depend on the processing

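No called log2 fold change of the 9 genes or the named list genes changed sign under the alternatives run. With adjusted p under 0.05 and no fold change minimum, 7 of the 9 genes were counted for CYT against untreated, 5 for IL-1βlow + CYT against CYT, 7 against untreated, 3 against IL-1βlow and 4 for the interaction. The same setting gave 4, 66, 47, 34, 23 and 32 list genes, with IL-1βlow against untreated first and the interaction last. With glmTreat the 9 genes gave 0 with CYT and 0 in IL-1βlow + CYT against CYT and against untreated, and the lists gave 0, 12, 0, 3, 1 and 0, where all genes gave 10, 1404, 457, 353, 229 and 182. For IL-1βlow + CYT against untreated, RLE size factors, DESeq2, no filter and the 2 groups alone each passed 1 of the 9 genes in place of 2, and 10 counts in every library left 3 list genes in place of 5. IL-1βlow against untreated passed 4 list genes with the exact test in place of 2, and 62 of all genes against 139 with DESeq2, 138 with the exact test and 10 with glmTreat.

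Without a filter on low counts that comparison gave 4 list genes and 229 of all genes, but these calls carry no weight. In that fit, alone among 26, the prior degrees of freedom were infinite (4.95 to 8.68 in the others), so a gene's own spread between libraries was not used: for Syt4 a variance of 0.814 stood in place of its own 3.56, and its adjusted p for IL-1βlow + CYT against untreated came to 1.84e-15, against 0.00202. A filter of 10 counts in 2 libraries, chosen after seeing this, kept a finite prior and gave 62 of all genes and 2 list genes there, and 1 of the 9 genes for IL-1βlow + CYT against untreated.

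Leaving out a library in turn, the 9 genes gave 0 to 2 calls for IL-1βlow + CYT against untreated, 1 to 2 against CYT and 0 to 1 for the interaction. The lists gave 0 to 2 for IL-1βlow against untreated, where only the fit without IL-1βlow replicate 3 passed any, and all genes gave 16 (without untreated replicate 3) to 74. Leaving out a replicate number in all groups was chosen after seeing the data. For IL-1βlow against untreated, all genes gave 6, 6 and 496 calls without replicate 1, 2 and 3, the lists 0, 0 and 4, and the 9 genes 0, 0 and 2. Without replicate 1 the 9 genes gave 0 for IL-1βlow + CYT against untreated and the lists 6 for the interaction. Without replicate 2 the 9 genes gave 0 there and 1 against CYT, and the lists 3 against untreated, 1 against IL-1βlow and 3 for the interaction. Without replicate 3 the 9 genes gave 1 against CYT and 1 for the interaction. The cause of these moves was not tested. A replicate block changed none of the 54 calls of the 9 genes at the study's thresholds and gave 141 of all genes for IL-1βlow against untreated. At adjusted p under 0.05 the replicate block lost 0 calls and gained 8: beside those given for IL-1βlow + CYT against IL-1βlow, Snap25 (0.0282), Stx1a (0.00587) and Syt4 (0.0184) for IL-1βlow against untreated, and Vamp2 (0.0112), Stx1a (0.0304) and Syt4 (0.0304) for the interaction.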
